A study of Mus musculus with 104 samples.

Results

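The 10 genes described here encode parts of the complexes that methylate histone H3 on lysine 4 (H3K4): Wbp7 (the older symbol of Kmt2b), Mll1 (Kmt2a), Men1, Psip1, Cxxc1, Ash2l, Wdr5, Rbbp5, Dpy30 and Ncoa6. They were found by their symbols, and all 10 were present among the 22562 gene rows used of the Kmt2b table and the 22590 used of the Tet1/2 table. The study profiled mouse embryos around gastrulation, from crosses of DBA2 males with C57BL/6N females. The Kmt2b set held E6.5 epiblast RNA from 3 Kmt2b-/- (KO) and 3 wild-type (WT) samples, E8.5 head RNA from 2 KO and 3 WT samples, and E9.5 head RNA from 1 KO and 3 WT samples. The E9.5 KO sample is labelled as head, but its deposited column carries the tissue code Em where the other head columns carry Head, so the tissue of its values is uncertain and they are given as labelled. The Tet1/2 set held Tet1-/-;Tet2-/- (DKO) RNA from 2 E6.5 epiblasts and 2 E8.5 heads, with 2 WT heads, and its table also carries the 3 WT epiblast libraries of the Kmt2b set. CpG methylation was measured by bisulfite sequencing in 3 KO epiblasts at E6.5 and in 2 KO and 2 WT heads at E8.5. The labels give no allele, deleted exon or Cre driver for either genotype, and nothing says whether a sample was a single embryo or a pool. Nothing says either that replicates came from separate embryos, so the p-values rest on a spread between samples that may be technical.

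H3K4 methylation marks active and poised genes. The catalytic subunits of the SET1 and MLL family act together with a shared core of WDR5, RBBP5, ASH2L and DPY30, which raises their activity. Other subunits belong to one branch of the family: menin and PSIP1 to the complexes of KMT2A and KMT2B, CXXC1 to the SET1 complexes, and NCOA6 to those of KMT2C and KMT2D. KMT2B is known for placing H3K4 trimethylation on CpG-rich promoters, many of them bivalent, in pluripotent cells and early embryos, and TET1 and TET2 oxidize 5-methylcytosine.

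RNA levels are given as FPKM, fragments counted per length of transcript and scaled to the size of the library, so that they can be set side by side between genes. Differences are on the log2(FPKM + 1) scale, KO or DKO minus WT, and understate the change of genes near or under 1 FPKM. The Kmt2b table has 1 merged column per group, so its values carry no error and no test, and differences of at least 2-fold were counted. The Tet1/2 table has 1 column per library and was tested with limma, with Benjamini-Hochberg adjustment over all genes that reached 1 FPKM in 2 or more of the libraries fitted, and genes with an adjusted p under 0.05 are called. Both tables were normalized by the authors separately, depth is unknown from FPKM, and in bulk tissue fewer cells of a type and less RNA per cell cannot be told apart.

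Several libraries stand apart in ways that touch the comparisons below. Transcripts of the Y-linked genes Ddx3y and Eif2s3y were at 13.6 to 67.3 FPKM in the DKO heads, in DKO epiblast 1 and in the 3 WT epiblasts, and at or under 0.125 FPKM in DKO epiblast 2 and both WT heads, in which the X-linked Xist was at 1.75 to 9.05 FPKM. Genotype and embryo sex therefore cannot be told apart in the DKO heads, and none of the 10 genes is on a sex chromosome. The WT epiblasts belong to the other sample set, so that genotype and sample set cannot be told apart in the DKO epiblast. Summed over 5 markers, heart genes were at 2405 FPKM in the single E9.5 KO library and 20.9 FPKM in the E9.5 WT column. Primitive red cell genes, 3 embryonic globins, summed to 5853 FPKM in KO and 15762 FPKM in WT at E9.5 and to 4.88 and 97.7 FPKM in KO and WT heads at E8.5. In the Tet1/2 table these globins were at 376 and 4.45 FPKM in the DKO heads and 0.215 and 0 FPKM in the WT heads. There the heart genes were at 7.60 and 4.85 FPKM in the DKO heads and at 28.3 and 185.8 FPKM in the WT heads. The 5 epiblast markers were detected in every epiblast column, at 2462 and 2337 FPKM in DKO and 1380 to 1453 FPKM in WT libraries, and all 5 head neural markers (Pax6, Otx1, Six3, Sox1 and Lhx2) were detected in every head column. As a check of the labels, Tet1 fell by 0.54 on the log2 scale in the DKO epiblast (limma adjusted p = 0.0485) and differed by −0.78 in the DKO head (adjusted p = 0.157), while Tet2 was under the minimum level.

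The promoters of these genes are shown first, since methylated DNA is the substrate of the TET enzymes and the H3K4 complexes bind CpG-rich DNA. RefSeq (build GRCm38.p6) held promoter windows for Mll1, Men1, Wdr5, Rbbp5, Dpy30 and Ncoa6, each running from 250 bases before to 50 bases after a transcript start. The 250 bases before the start are printed for the catalytic gene Mll1, for its partner Men1 and for the core subunit Dpy30, 5′ to 3′ on the gene's strand with every CpG in capitals. In GRCm38.p6 they lie at chr9:44881290-44881539 (minus strand, 29 CpGs), chr19:6334763-6335012 (plus strand, 10 CpGs) and chr17:74316212-74316461 (minus strand, 34 CpGs).
Mll1: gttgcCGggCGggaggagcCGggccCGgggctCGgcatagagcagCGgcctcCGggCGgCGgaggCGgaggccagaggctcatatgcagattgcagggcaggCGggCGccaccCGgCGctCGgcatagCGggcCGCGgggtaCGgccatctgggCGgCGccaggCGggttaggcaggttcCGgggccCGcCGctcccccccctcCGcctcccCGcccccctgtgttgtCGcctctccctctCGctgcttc
Men1: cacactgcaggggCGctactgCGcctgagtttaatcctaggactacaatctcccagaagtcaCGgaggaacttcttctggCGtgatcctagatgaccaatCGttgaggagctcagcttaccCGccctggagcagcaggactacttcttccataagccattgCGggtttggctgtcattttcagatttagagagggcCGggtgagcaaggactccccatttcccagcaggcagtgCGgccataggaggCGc
Dpy30: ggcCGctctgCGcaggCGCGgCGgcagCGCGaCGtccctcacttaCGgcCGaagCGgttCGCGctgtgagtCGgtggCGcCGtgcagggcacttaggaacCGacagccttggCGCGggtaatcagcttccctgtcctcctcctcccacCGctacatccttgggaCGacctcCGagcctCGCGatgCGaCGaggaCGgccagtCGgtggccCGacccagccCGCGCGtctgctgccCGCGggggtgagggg

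Methylation of these promoters was near 0 in mutant and WT tissue. The methylation files are in mm9 coordinates, and a window was placed in them where the spacing of its CpGs matched exactly and at a single position, which required at least 10 CpGs. This placed promoters of 5 genes, and that of Ncoa6, with 1 CpG, was not placed. Dpy30 had placed windows with 30, 34 and 39 CpGs and Men1 had windows with 11, 16 and 16. The first window with the most CpGs was used for each gene, and levels of the other windows are not given. The Mll1 window (mm9 chr9:44689323-44689622, 36 CpGs) had 1 methylated of 68 reads in the KO epiblast, 1 of 239 in the KO head and 1 of 129 in the WT head, which is 1.47%, 0.418% and 0.775%. For Men1 (mm9 chr19:6334763-6335062, 16 CpGs) 2 of 48 reads were methylated in the KO epiblast and 1 of 34 in the KO head, against 0 of 32 in the WT head, where the Wilson 95% interval reaches 10.7%. These intervals overlap for each gene in all 3 pooled groups, which is no test of a difference. There is no WT epiblast among them, so the KO epiblast level has no WT beside it.

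The other 3 promoters were also low. Dpy30 (mm9 window with 39 CpGs on chromosome 17) had 1 of 139 reads methylated in the KO epiblast, 0 of 275 in the KO head (Wilson 95% interval up to 1.38%) and 1 of 227 in the WT head. Wdr5 (22 CpGs, chromosome 2) had 0 of 16 in the KO epiblast (up to 19.4%), 1 of 149 in the KO head and 1 of 206 in the WT head. No methylated read was seen for Rbbp5 (16 CpGs, chromosome 1) among 23 reads in the KO epiblast, 36 in the KO head and 85 in the WT head, where the intervals reach 14.3%, 9.64% and 4.32%. Over the 5 promoters together 4 of 294 reads were methylated in the KO epiblast (1.36%, Wilson 95% interval 0.530 to 3.45), 3 of 733 in the KO head (0.409%, 0.139 to 1.20) and 3 of 679 in the WT head (0.442%, 0.150 to 1.29). The intervals cover counting error only, since reads have no molecular identifiers and replicates were pooled, and no test was made. Low methylation is the rule for CpG-rich promoters: over 11211 genes placed in the same way with at least 10 reads in each file, the median level was 2.04% in the KO epiblast, 0.909% in the KO head and 0.704% in the WT head, while 67.6% to 68.2% of reads over all CpGs were methylated.

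**Figure D1:**
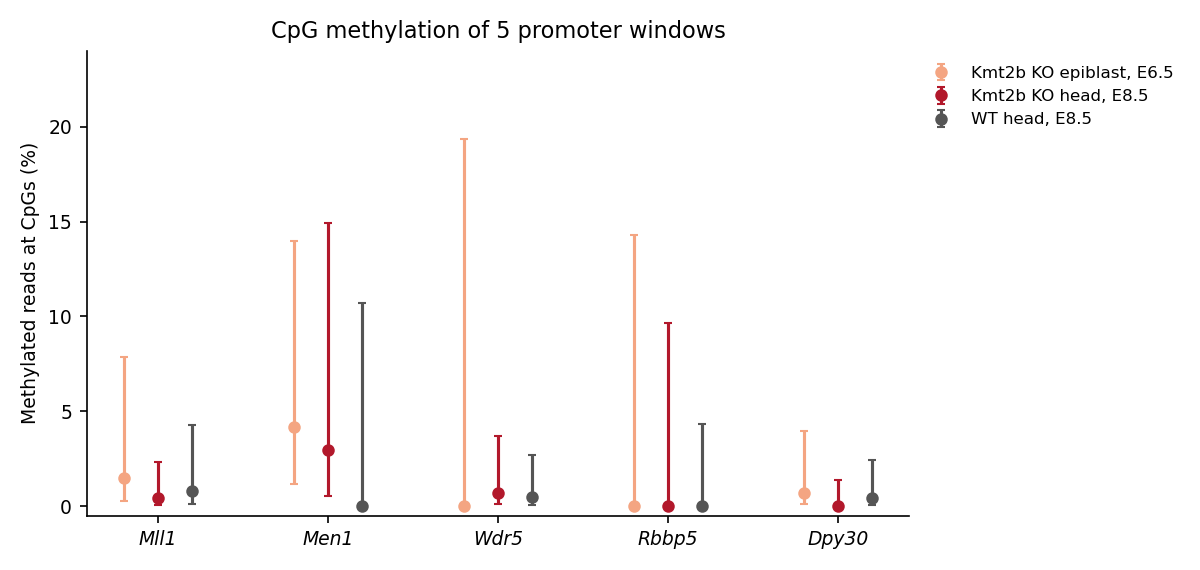
Percent of bisulfite reads methylated at the CpGs of 5 promoter windows (y axis), by gene (x axis), in the E6.5 Kmt2b KO epiblast and the E8.5 Kmt2b KO and WT heads. Points are pooled replicates and bars are Wilson 95% intervals of counting error; all points lie at or under 4.17%, with the widest intervals for windows with fewest reads, such as Wdr5 with 16 reads in the KO epiblast.

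The 10 genes covered a wide range of RNA levels, with 3 of the 4 core genes (Dpy30, Ash2l and Wdr5) highest and the catalytic Mll1 and Wbp7 lowest. As the mean of the 9 libraries of the Tet1/2 table, Dpy30 was at 330.2 FPKM, Ash2l at 94.4, Wdr5 at 75.9 and Psip1 at 73.8 FPKM. Men1 (20.3 FPKM) and Rbbp5 (17.9 FPKM) formed a middle pair. Cxxc1 was at 7.74, Ncoa6 at 2.53, Mll1 at 1.26 and Wbp7 at 0.700 FPKM. Neighbours in this order overlapped between libraries for Ash2l, Wdr5 and Psip1, for Men1 and Rbbp5, and for Mll1 with Wbp7 and with Ncoa6. Dpy30 was above all other members in every library. Levels varied least between libraries for Dpy30, whose highest library (DKO epiblast 1) was 1.35 times its lowest (DKO head 1), and most for Ncoa6, whose highest (DKO head 2) was 3.18 times its lowest (a WT epiblast).

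The Kmt2b comparison asks how the rest of the machinery stands when one catalytic subunit is deleted. Wbp7 was the only member lower in KO at all 3 stages, and no other member differed by 2-fold at any stage. The E9.5 KO values are those of the column with the uncertain tissue. At E6.5, Psip1, Cxxc1 and Dpy30 were higher in the KO epiblast by 0.48 to 0.60 on the log2 scale. The paralog Mll1 was higher in KO at E6.5 and E8.5 and lower at E9.5.

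Wbp7 had merged levels of 0.308 FPKM in KO and 0.701 FPKM in WT epiblast at E6.5, 0.133 and 0.600 FPKM in KO and WT heads at E8.5, and 0.0349 and 1.20 FPKM in KO and WT heads at E9.5. The KO level was thus 0.440, 0.222 and 0.0290 of WT at the 3 stages. Wbp7 stayed under the minimum level for the counts below. The level of Mll1 was 5.97 times that of Wbp7 in KO and 2.01 times in WT at E6.5, 13.0 times in KO and 2.16 times in WT at E8.5, and 55.2 times in KO and 2.22 times in WT at E9.5. Across the 9 libraries of the Tet1/2 table, none of which is labelled as lacking Kmt2b, this ratio was 1.15 to 2.66. That range lies below every KO column. The deleted gene is the denominator of this ratio, so it rises in KO with the fall of Wbp7 and does not measure Mll1 alone.

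Mll1, the KMT2A gene and closest relative of Kmt2b, was at 1.84 FPKM in KO and 1.41 FPKM in WT epiblast, a log2 difference of 0.24. The WT epiblast libraries of the Tet1/2 table had a log2 SD of 0.18 (n = 3) for Mll1, so that this difference is of the size of their spread. At E8.5 it was at 1.74 FPKM in KO and 1.29 FPKM in WT heads (0.25, against an SD of 0.063 between the 2 WT heads of the Tet1/2 table). The E9.5 values went the other way, with 1.92 FPKM in KO and 2.67 FPKM in WT heads (−0.33).

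Of the partners of KMT2A and KMT2B, Psip1, a chromatin reader that binds methylated H3K36, was at 103 FPKM in KO and 68.0 FPKM in WT epiblast (0.60, WT SD 0.10). It was at 90.1 and 67.9 FPKM in KO and WT heads at E8.5 (0.40, WT SD 0.043). That SD is between 2 WT heads of the Tet1/2 table, whose 2 DKO heads had an SD of 0.27 for Psip1. At E9.5 Psip1 was at 97.9 and 123 FPKM in KO and WT heads (−0.33). On this scale Psip1 had the largest difference of the 9 members above the minimum level at E6.5 and at E8.5. As ratios of KO to WT at E6.5, Psip1 (1.520) and Cxxc1 (1.524) were alike, and both were nearer to 1 than Wbp7. Men1, which encodes the scaffold menin, was at 18.3 and 16.9 FPKM in KO and WT epiblast (0.11, within its WT SD of 0.16), 18.9 and 21.2 FPKM in KO and WT heads at E8.5 (−0.16) and 10.2 and 7.77 FPKM in KO and WT heads at E9.5 (0.36). Cxxc1, which binds unmethylated CpGs, was at 9.30 FPKM in KO and 6.10 FPKM in WT epiblast (0.54, WT SD 0.044). In heads the KO columns had the lower value for Cxxc1, with 6.65 FPKM in KO against 8.02 FPKM in WT at E8.5 (−0.24) and 8.01 FPKM in KO against 8.48 FPKM in WT at E9.5 (−0.07). Ncoa6, a coactivator of nuclear receptors, was at 1.52 and 1.28 FPKM in KO and WT epiblast (0.14, within its WT SD of 0.15), 2.92 and 3.12 FPKM in KO and WT heads at E8.5, and 8.17 and 9.97 FPKM in KO and WT heads at E9.5. The E8.5 sign of Ncoa6, −0.07 here, turned to 0.12 when the WT heads of the Tet1/2 table were taken in place of the merged WT column.

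Among the 4 core genes, Ash2l and Wdr5 were above WT at all 3 stages, and the share of all genes that were was not computed. Wdr5, whose product reads the H3 tail and holds the core together, was at 86.7 FPKM in KO and 78.2 FPKM in WT epiblast (0.15), 63.4 and 54.6 FPKM in KO and WT heads at E8.5 (0.21), and 45.8 and 29.4 FPKM in KO and WT heads at E9.5 (0.62). Ash2l, which pairs with RBBP5 to stimulate the catalytic subunit, was at 91.6 and 89.8 FPKM in KO and WT epiblast (0.03), 99.3 and 89.8 FPKM in KO and WT heads at E8.5 (0.14) and 73.6 and 60.1 FPKM in KO and WT heads at E9.5 (0.29). The log2 SD of Ash2l between WT libraries was 0.096 in the epiblast and 0.18 in the heads, which its E6.5 and E8.5 differences did not exceed. Its E8.5 difference became 0.30 with the WT heads of the Tet1/2 table in place of the merged WT column, and its E9.5 difference 0.094 when the 6 columns were quantile normalized together. That normalization gave 0.48 for Wdr5 at E9.5. Rbbp5 had log2 differences of −0.03, −0.06 and 0.12 at the 3 stages, the E8.5 one becoming −0.22 with the WT heads of the Tet1/2 table. Dpy30, which binds ASH2L and is the most abundant member, was at 464 FPKM in KO and 333 FPKM in WT epiblast (0.48, WT SD 0.030), but at 263 and 314 FPKM in KO and WT heads at E8.5 (−0.26) and 322 and 387 FPKM in KO and WT heads at E9.5 (−0.26).

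As a list, 0 of the 9 members above the minimum level differed by at least 2-fold at E6.5, E8.5 or E9.5, where 1.70%, 4.72% and 8.25% of all 11073 genes did. At E6.5, 8 of the 9 were above 0 with a median of 0.15, while 47.1% of all genes were above 0 with a median of −0.02. At E8.5 and at E9.5, 4 of 9 were above 0, with medians of −0.06 and −0.07. The E9.5 KO value is a single library whose column name does not say head, and its heart and red cell marker levels given above differ from those of WT heads. KO and WT cannot be told apart from a difference in tissue there, and the markers' part was not tested. At E8.5 the 5 head neural markers summed to 17.7 FPKM in KO and 59.0 FPKM in WT heads. The 5 epiblast markers summed to 123 and 62.4 FPKM in these KO and WT heads. At E6.5 they summed to 1833 and 1401 FPKM in KO and WT epiblast. The part of these markers was not tested either. Sex-linked transcripts differed too: Eif2s3y was at 40.0 FPKM in KO and 64.1 FPKM in WT epiblast, at 20.2 and 6.35 FPKM in KO and WT heads at E8.5 and at 6.44 and 7.78 FPKM in KO and WT at E9.5. Xist was at 2.01 and 0.0954 FPKM in KO and WT epiblast and at 6.23 and 9.17 FPKM in KO and WT heads at E8.5. At E9.5 it was listed at 0 in KO, against 8.08 FPKM in WT. The Y-linked Ddx3y was at 12.6 and 21.9 FPKM in KO and WT epiblast. In KO and WT heads at E8.5 it was at 7.12 and 2.21 FPKM. At E9.5 Ddx3y went the other way from Eif2s3y, with 9.34 FPKM in KO and 3.20 FPKM in WT. The part of embryo sex in the members' values was not tested.

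**Figure D2:**
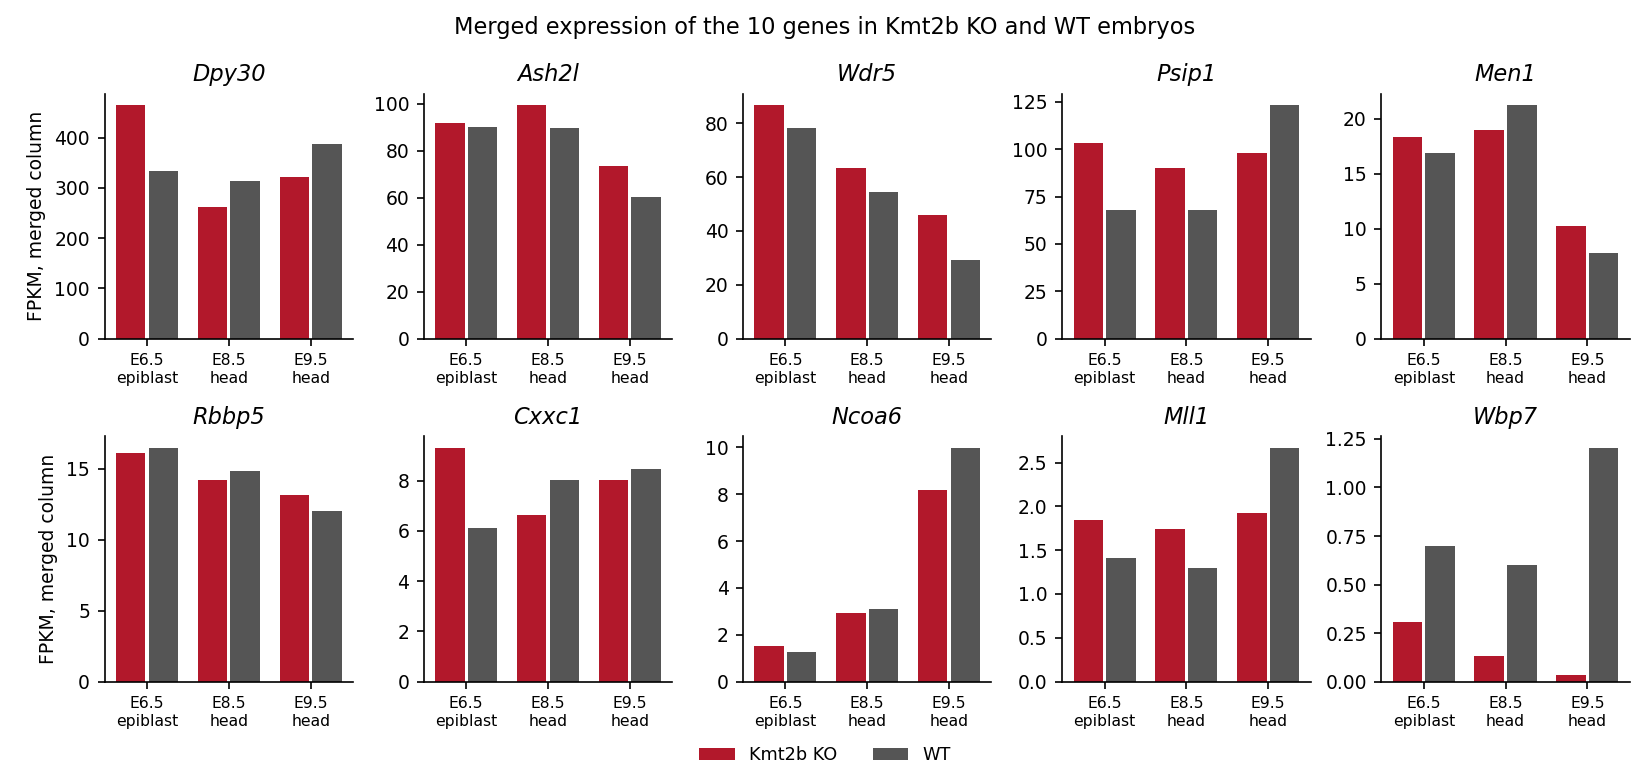
Merged FPKM (y axis, linear from 0, a scale per gene) of the 10 genes in Kmt2b KO and WT columns at E6.5, E8.5 and E9.5 (x axis), in order of mean level; there are no error bars because each bar is a single deposited column. Wbp7 is the only gene whose KO bar is lower at every stage, and Psip1, Cxxc1 and Dpy30 have KO bars well above WT at E6.5 only or, for Psip1, at E6.5 and E8.5.

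Loss of Tet1 and Tet2 came with higher levels of several members in the epiblast. Ncoa6, Cxxc1, Men1, Rbbp5 and Wdr5 rose in the DKO epiblast, by 0.39 to 0.99 on the log2 scale, and no member fell. Of the other members, Mll1, Dpy30, Psip1 and Ash2l did not pass the test and Wbp7 was too low to be tested. The 5 called are 5 of 9 members tested, where 35.2% of all 11264 genes were called in either direction and 20.1% as higher. Their WT libraries are also the WT of the Kmt2b KO epiblast, so the 2 mutants share controls. In the KO epiblast the same genes had log2 differences of 0.14 for Ncoa6, 0.54 for Cxxc1, 0.11 for Men1, −0.03 for Rbbp5 and 0.15 for Wdr5, with no test.

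Ncoa6 was at 3.47 and 3.48 FPKM in the DKO epiblasts and at 1.12, 1.55 and 1.13 FPKM in the WT epiblasts. Both DKO libraries lay well above all 3 WT libraries. The log2 difference of 0.99 (SE 0.16, 95% interval 0.62 to 1.35) was the largest of the members (limma adjusted p = 0.00293). Cxxc1 was at 10.3 and 11.3 FPKM in DKO and at 5.91, 6.30 and 5.94 FPKM in WT epiblasts, again without overlap. It differed by 0.74 (SE 0.15, adjusted p = 0.00681). Men1 had 28.1 and 27.4 FPKM in DKO and 16.0, 19.4 and 15.7 FPKM in WT epiblasts, with both DKO values above the highest WT value, and differed by 0.68 (SE 0.12, adjusted p = 0.00441). These 3 genes were called in every fit that left out a library.

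Of the core, Rbbp5, which bridges WDR5 and ASH2L, was at 21.7 and 25.0 FPKM in DKO and 17.2, 15.7 and 18.3 FPKM in WT epiblasts. Wdr5 was at 99.3 and 115 FPKM in DKO and 76.3, 83.8 and 83.9 FPKM in WT epiblasts. Neither gene's groups overlapped, and the log2 differences were 0.43 for Rbbp5 (SE 0.12, adjusted p = 0.0229) and 0.39 for Wdr5 (SE 0.10, adjusted p = 0.0185). Both calls were lost without DKO epiblast 2, the epiblast library without Y-linked transcripts (limma adjusted p = 0.121 for Rbbp5 and 0.113 for Wdr5), which leaves 3 of 9 members called. The Rbbp5 call was also lost without WT epiblast 2 (0.0542) and with the epiblast libraries fitted alone (0.0677), and the Wdr5 call without WT epiblast 1 (0.0519).

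The other members stayed under the threshold in the epiblast. Dpy30 was at 381 and 363 FPKM in DKO and 334, 344 and 331 FPKM in WT epiblasts (0.14, limma adjusted p = 0.0992). Psip1 was at 85.6 and 82.4 FPKM in DKO and 74.7, 72.1 and 64.9 FPKM in WT (0.25, adjusted p = 0.132), and Ash2l at 112 and 103 FPKM in DKO and 99.5, 87.4 and 96.5 FPKM in WT (0.18, adjusted p = 0.233). In each of these 3 genes the DKO values lay above all WT values. Mll1 overlapped, with 1.30 and 0.932 FPKM in DKO and 1.06, 1.64 and 1.23 FPKM in WT, and its difference of −0.12 had a 95% interval of −0.52 to 0.27. Wbp7 overlapped as well, with 1.13 and 0.574 FPKM in DKO and 0.799, 0.699 and 0.464 FPKM in WT epiblasts. In total, 8 of the 10 genes had all DKO above all WT epiblasts, against 31.8% of all genes tested, which leave out Wbp7.

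**Figure D3:**
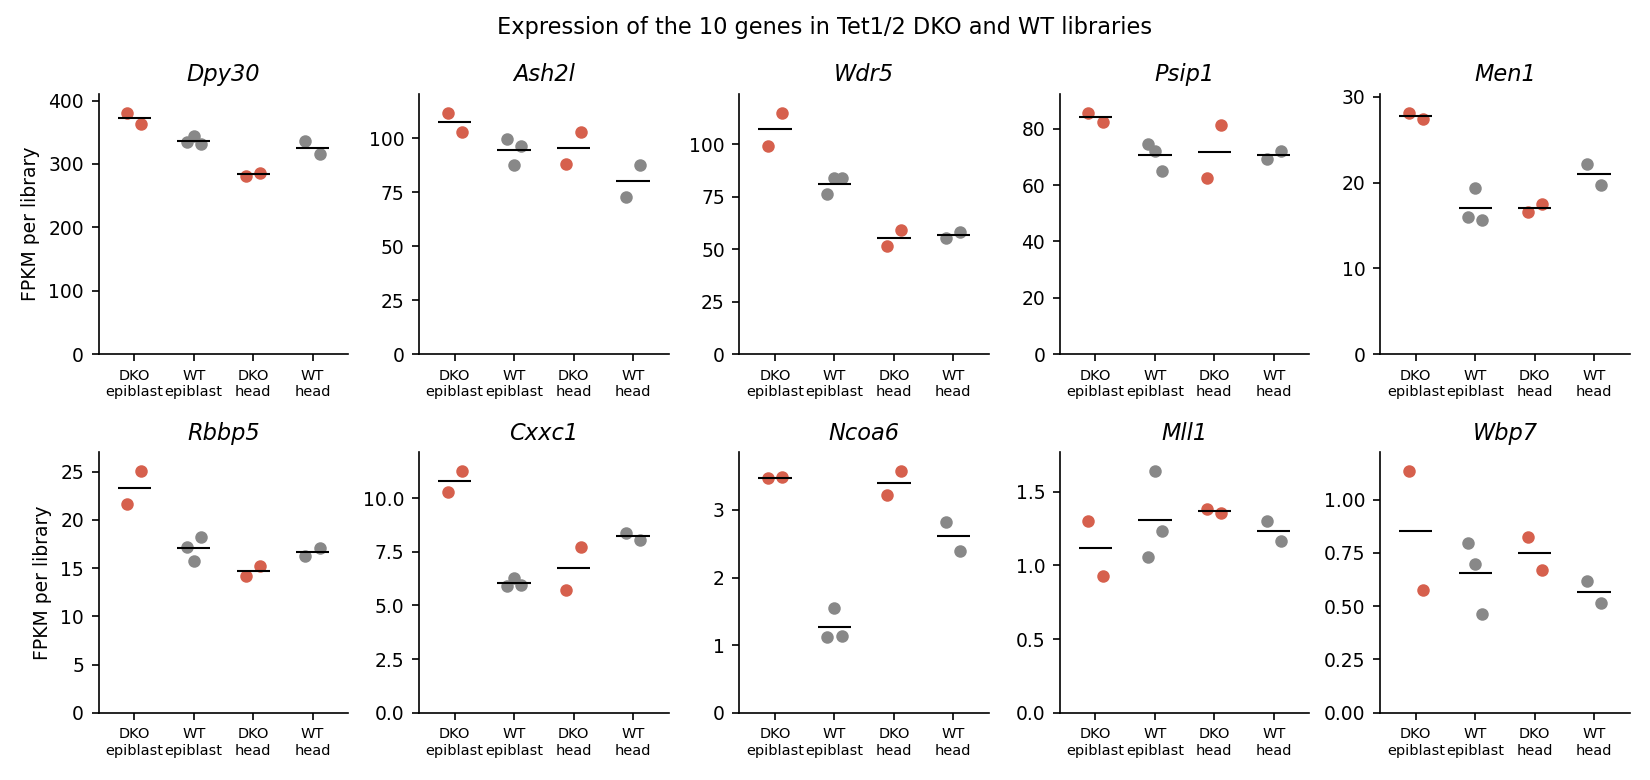
FPKM (y axis, linear from 0, a scale per gene) of the 10 genes in each library of the Tet1/2 table: 2 DKO and 3 WT E6.5 epiblasts and 2 DKO and 2 WT E8.5 heads (x axis). Points are libraries and lines are group means; the DKO epiblast points lie above the WT epiblast points for every gene but Mll1 and Wbp7, and in heads Dpy30, Men1, Rbbp5 and Cxxc1 have DKO points below WT.

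In the head, none of the 9 members was called between DKO and WT by limma, where 0.433% of 10866 genes were called, and at an unadjusted p under 0.05 there were 1 member (Dpy30) and 1830 genes in all. Dpy30 was at 281 and 286 FPKM in DKO and 336 and 316 FPKM in WT heads, a difference of −0.20 (95% interval −0.36 to −0.04, limma adjusted p = 0.230). Men1 was at 16.6 and 17.5 FPKM in DKO and 22.2 and 19.8 FPKM in WT heads (−0.28, adjusted p = 0.297). Both genes were lower in both DKO heads than in either WT head.

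Cxxc1 was at 5.74 and 7.74 FPKM in DKO and 8.38 and 8.06 FPKM in WT heads (−0.26, limma adjusted p = 0.493). Rbbp5 was at 14.1 and 15.2 FPKM in DKO and 16.3 and 17.1 FPKM in WT heads (−0.18, adjusted p = 0.534). These 2 genes also had both DKO values below both WT values, the DKO heads of Cxxc1 lying far apart. In the other direction, Ncoa6 was at 3.22 and 3.57 FPKM in DKO and 2.82 and 2.40 FPKM in WT heads (0.29, adjusted p = 0.419), and Ash2l at 88.2 and 103 FPKM in DKO and 72.9 and 87.5 FPKM in WT heads (0.25, adjusted p = 0.384). Mll1 was at 1.39 and 1.35 FPKM in DKO and 1.30 and 1.16 FPKM in WT heads (0.09), and Wbp7 at 0.825 and 0.671 FPKM in DKO and 0.617 and 0.516 FPKM in WT heads. These 4 genes were higher in both DKO heads than in either WT head. Wdr5 (51.8 and 59.3 FPKM in DKO, 55.5 and 58.3 FPKM in WT heads) and Psip1 (62.4 and 81.3 FPKM in DKO, 69.1 and 72.1 FPKM in WT heads) overlapped. Groups thus did not overlap for 4 of 10 genes as higher, Wbp7 among them, and 4 as lower. These counts are close to the 28.4% and 32.0% of all genes tested, which leave out Wbp7.

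Whether the DKO effect differed between tissues was tested as an interaction, the DKO minus WT difference in the head minus that in the epiblast. It was called as lower in the head for 4 of 9 members, where 26.4% of genes were called and 15.5% as lower. The estimate was −1.004 for Cxxc1 (SE 0.22, limma adjusted p = 0.0140), −0.96 for Men1 (SE 0.18, 0.00790), −0.61 for Rbbp5 (SE 0.17, 0.0353) and −0.34 for Dpy30 (SE 0.091, 0.0272). Ncoa6 (−0.70, adjusted p = 0.0607) and Wdr5 (−0.43, adjusted p = 0.0643) did not pass. Mll1 (0.21), Ash2l (0.07) and Psip1 (−0.24) had intervals that include 0.

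Of the 4 interactions, that of Men1 alone was called in every fit that left out a library. That of Cxxc1 was lost without WT head 1 (limma adjusted p = 0.0531) or DKO head 1 (0.0683). The count of members called was 1 without WT head 1, 1 without DKO head 1 and 2 without DKO head 2. Dpy30 was lost without WT epiblast 3, DKO epiblast 1, WT head 1 or either DKO head (adjusted p = 0.0563 to 0.107), and Rbbp5 without any library other than WT epiblast 3 or DKO epiblast 1 (0.0570 to 0.135). In the head part of this contrast embryo sex splits as genotype does, and in the epiblast part the sample set does, so these cannot be told apart from genotype here. With eBayes fitted without a mean trend, 4 members were again called, Dpy30 dropping out (adjusted p = 0.116) and Ncoa6 coming in (0.0334).

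**Figure D4:**
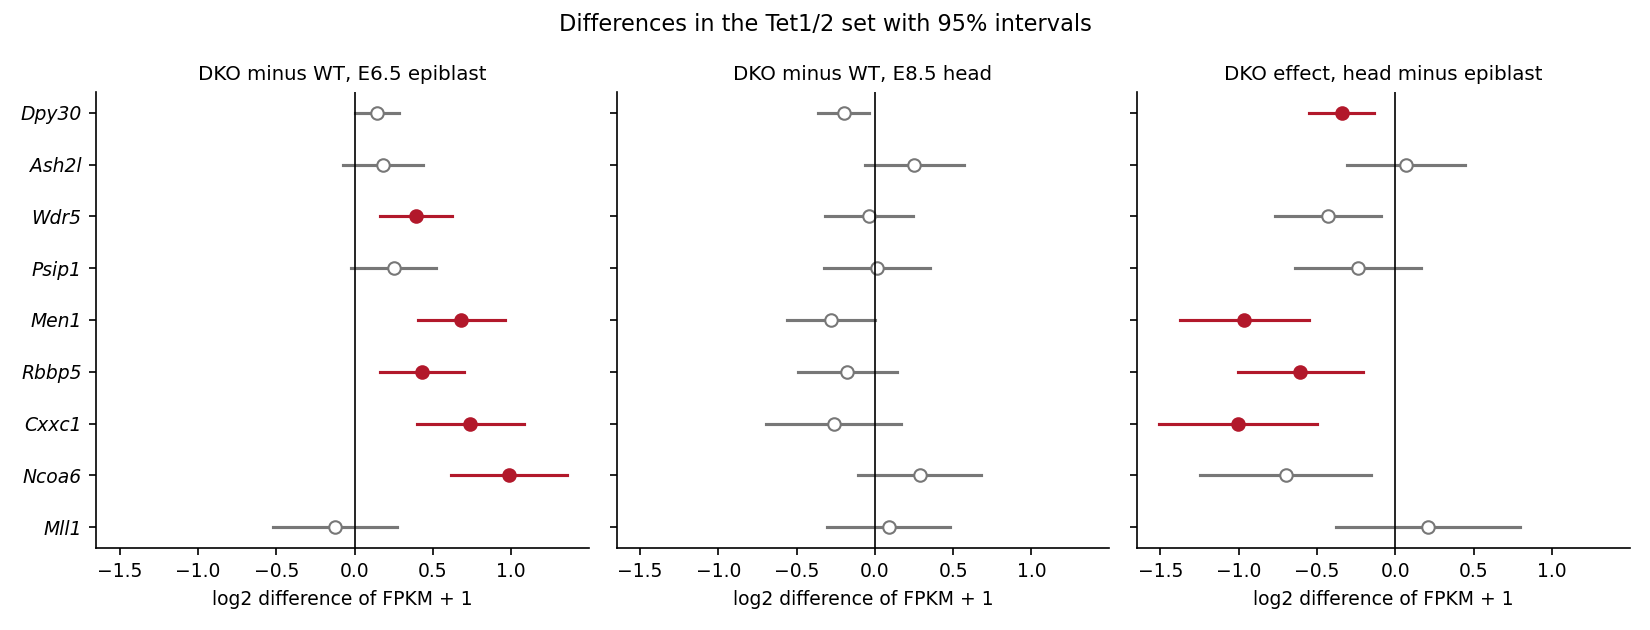
Log2 differences of FPKM + 1 (x axis) with 95% intervals for the 9 members tested (y axis): DKO minus WT in the E6.5 epiblast, DKO minus WT in the E8.5 head, and the head difference minus the epiblast difference. Filled red points passed an adjusted p under 0.05, open grey points did not; 5 members are filled in the epiblast, 0 in the head and 4 in the interaction.

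Between stages, Wdr5 was lower in the head than in the epiblast in both genotypes. In WT, stage cannot be told apart from sample set and embryo sex, since the heads are of the Tet1/2 set with Xist and without Y-linked transcripts and the epiblasts of the Kmt2b set with the reverse. In DKO, both heads and 1 of 2 epiblasts had Y-linked transcripts. In DKO, Wdr5 fell by 0.94 on the log2 scale, to 55.5 ± 5.30 FPKM in heads against 107 ± 11.1 FPKM in epiblasts (SD, n = 2 each, limma adjusted p = 0.000320). In WT it fell by 0.51, to 56.9 ± 1.92 FPKM in heads against 81.3 ± 4.36 FPKM in epiblasts (SD, n = 2 and 3, adjusted p = 0.00521). The merged columns have the same order, with 63.4 FPKM in the KO head and 86.7 FPKM in the KO epiblast, and 54.6 FPKM in the WT head and 78.2 FPKM in the WT epiblast. The merged WT epiblast column was taken as the same libraries as the WT epiblasts above, so it is not a separate measurement.

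Ncoa6 was the member with the opposite course in WT. It rose to 2.61 ± 0.299 FPKM in WT heads, against 1.27 ± 0.246 FPKM in WT epiblasts (SD, n = 2 and 3), a difference of 0.67 (limma adjusted p = 0.0121) that was lost without WT head 1 (0.105, with 1 member then called). In DKO it was at 3.39 ± 0.250 FPKM in heads and 3.48 ± 0.00946 FPKM in epiblasts, a difference of −0.03 (adjusted p = 0.908). In the Kmt2b table, whose E9.5 columns were not normalized with the others, Ncoa6 was highest at E9.5, with 8.17 FPKM in KO and 9.97 FPKM in WT heads.

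In DKO, 4 further members fell in heads relative to epiblasts: Men1 by 0.67 (limma adjusted p = 0.00391), Rbbp5 by 0.63 (0.00425), Cxxc1 by 0.62 (0.0137) and Dpy30 by 0.39 (0.00201). The Cxxc1 call was lost without DKO head 1 (0.124). In total 5 of 9 members were called in DKO, all lower in the head, where 49.8% of all genes were called and 26.1% as lower, and 2 of 9 in WT, where 36.9% were. In WT, Men1 (0.29, adjusted p = 0.0954) and Cxxc1 (0.39, adjusted p = 0.0718) leaned the other way without passing. Over all 4 groups, the DKO epiblast had the highest mean of every member but Mll1, for which neighbouring groups all overlapped. For Wbp7 and Ash2l, too, every group overlapped with the next one in order.

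The other genes of the same machinery were described from lists of 11 further complex subunits and 5 H3K4 demethylases. In the DKO epiblast, 5 of the 11 subunits were called, with a median of 0.44, where 35.2% of all genes were called and their median was 0.05. Hcfc1, a cofactor on the X chromosome, rose by 0.69 (limma adjusted p = 0.0179), Mll2 (taken as Kmt2d, since Wbp7 has its own row) by 0.55 (0.0409) and Paxip1, a partner of KMT2C and KMT2D, by 0.44 (0.0453), and Wdr82, a SET1 complex subunit, rose by 0.32 (0.0470). Bod1l fell by 0.64 (0.0498). Of the demethylases, the X-linked Kdm5c rose by 0.77 (0.0186) and Kdm5b by 0.59 (0.0175), 2 of 5, with a median of 0.47. In either direction the counts of both lists lie near the share of all genes. As higher, 4 of the 11 subunits and 2 of the 5 demethylases were called, against 20.1% of all genes. Above 0 were 10 of the 11 subunits and 5 of the 5 demethylases. The members had 8 of 9 above 0 with a median of 0.39, where 54.0% of all genes were above 0. Between DKO and WT heads none of the 16 was called, against 0.433% of all genes. From DKO epiblast to DKO head, 5 of the 11 subunits and 2 of the 5 demethylases were called lower, against 26.1% of all genes. The interaction, called for 26.4% of all genes, was called for 4 of the 16: Pagr1a (−0.61, adjusted p = 0.0360), Kdm6a (−1.31, 0.0346), Kdm5b (−1.11, 0.00967) and Kdm5c (−1.50, 0.00909), and Kdm6a and Kdm5c are X-linked.

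In the Kmt2b set, 0 of these 16 genes differed by 2-fold on the log2(FPKM + 1) scale at any stage, where 1.70% of all genes did at E6.5, 4.72% at E8.5 and 8.25% at E9.5. The plain ratio of KO to WT passed 2 for Hcfc2 at E6.5 (0.666 and 0.285 FPKM in KO and WT) and Mll2 at E9.5 (1.87 and 0.891 FPKM in KO and WT). At E6.5 all 11 subunits were above 0 with a median of 0.33, led by the X-linked Kdm6a with 11.2 FPKM in KO and 8.05 FPKM in WT epiblast (0.43) and Mll2 with 5.02 and 3.52 FPKM in KO and WT (0.41), and 4 of 5 demethylases were, led by Kdm5a with 9.36 and 6.56 FPKM in KO and WT (0.45). At E8.5 and E9.5, 6 of the 11 subunits were above 0. The largest differences there were those of Bod1l at E8.5, with 5.48 FPKM in KO and 3.50 FPKM in WT heads (0.53), and of Wdr82 at E9.5, with 16.4 and 26.99 FPKM in KO and WT heads (−0.68).

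For the catalytic pair, the genes with the most similar pattern over the 9 libraries were looked up among 11239 genes outside these lists. They were Scd1, Osbpl2 and Lims1 for Wbp7 (Pearson r of 0.889, 0.884 and 0.871) and Csda, Pcnxl3 and Insr for Mll1 (0.893, 0.889 and 0.888). These are the top values of a search over all genes in libraries that share 4 groups, and are given as a description.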

How the data were processed

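RNA values are FPKM deposited by the authors, from Smart-seq2 libraries per the labels' protocols, with TopHat2 (2.0.11), Cufflinks (2.0.2) and build mm9 named in the submitters' processing notes. After sorting, the 4 columns for E6.5 and E8.5 of the Kmt2b table differed by at most 0.131% and the 9 of the Tet1/2 table by at most 0.208%, as quantile normalization would leave them, but the E9.5 columns by 41.1% (KO) and 72.3% (WT). Of 22592 rows of the Kmt2b table, 27 names turned into dates and 3 small RNAs were left out. Its 2 columns of no listed sample were left out too. Of 22593 rows of the Tet1/2 table, 3 small RNAs were left out. The merged WT epiblast column had r = 0.99954 over genes with the mean of the 3 WT epiblasts in the Tet1/2 table, which were taken as the same libraries. Groups came from the labels.

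The Kmt2b plan allowed a limma test over libraries, which merged columns do not permit. The Tet1/2 table was fitted with limma 3.58.1 (R 4.3.3, eBayes with a mean trend, two-sided) on log2(FPKM + 1): DKO epiblasts with both head groups for the head, and all 4 groups for the other comparisons. The fit of the head comparison was tested on simulated data, with changes of at least 2-fold in genes of higher level. Smaller changes, changes in low genes and the other comparisons were not simulated. Fragment depth is unknown.

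Methylation files hold counts of methylated and unmethylated reads per CpG, deposited by the authors with replicates pooled. Libraries were made with STEM-seq per the labels' protocols, and BS-Seeker2 and Trim Galore appear in the submitters' processing notes. Their header-less columns were read as strand-wise counts, since both strands gave similar levels (r = 0.657 to 0.798). Mean depth was 1.37 reads per CpG in the KO epiblast, 1.97 in the KO head and 2.12 in the WT head, over 21342492 CpGs.

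The members, lists and tests were chosen with earlier results of these data known. All members are named, and up to 4 genes of each other list per comparison, those past the threshold first. Sex-linked genes were added after their values were seen, and Bod1l and Wdr82 in heads and the fifth called subunit were named to complete a count. Alternatives changed the pseudocount, the minimum level, the scaling, the trend, the libraries fitted, the block, the read minimum and the window.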

Additional observations from a re-analysis of the deposited data

Results flagged for a closer look

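The DKO effect differed between E8.5 head and E6.5 epiblast for 4 of the 9 members tested, by the interaction term of the limma fit, which called 26.4% of all genes and 15.5% as lower: −1.004 for Cxxc1, −0.963 for Men1, −0.606 for Rbbp5 and −0.343 for Dpy30 on the log2 scale, each lower in the head. Only Men1 was called in every fit that left out a library, and the count was 1 without WT head 1 or without DKO head 1. In each of these 4 genes both DKO epiblasts were above all 3 WT epiblasts and both DKO heads were below both WT heads. This order comes from the same libraries as the interaction that picked the genes, so it is no separate evidence. Over all genes tested, 31.8% had the first order and 32.0% the second, and the share with both was not computed. Genotype and embryo sex cannot be told apart in the heads, nor genotype and sample set in the epiblast. No group has 4 or more libraries, so single outlying libraries were not looked for.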

How the results depend on the processing

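No member's call changed in the Kmt2b set, except that without a minimum level Wbp7 joined as 1 member past 2-fold at E9.5. The number of genes past 2-fold followed the pseudocount: 188 at E6.5 became 589 with 0.1 and 40 with 5, 523 at E8.5 became 1152 and 152, and 914 at E9.5 became 1708 and 324, and with at least 5 FPKM it was 113 at E6.5 and 591 at E9.5. Merged columns allow no replicate to be left out. In the Tet1/2 set the genes called in the head were 47, but 28 with no minimum level, 160 with all 4 groups and 284 with the heads alone, and those called in the epiblast were 3970, but 2563 with the epiblast libraries alone. With at least 5 FPKM, 1 of 7 members was called between WT stages, in place of 2 of 9. Leaving out each replicate in turn gave 0 members called in the head and 3 to 295 genes, 3 to 5 members in the epiblast and 2499 to 4363 genes, 1 to 4 members in the interaction and 1161 to 4053 genes, 1 to 3 between WT stages and 2157 to 4870 genes, and 4 to 6 between DKO stages and 3352 to 5575 genes. Fewer libraries were fitted there; no other cause was tested. Same-numbered libraries were not taken as pairs, since their deviations correlated at −0.00921 to 0.193, not over 0.1 in every pair. Where both groups have 2 libraries, both numbers give the same correlation, so this check cannot exclude pairing. With the number as a replicate block, 2 members (Men1 and Cxxc1) were called in the interaction in place of 4, and 32 genes in the head, 3152 in the epiblast and 2359 in the interaction; the block turned the WT stage difference of Psip1 to −0.05545 and of Rbbp5 to 0.0208. Other signs turned only for members that were not called: with 1 library left out, log2 differences ran from −0.1757 to 0.2011 for Psip1 and −0.1338 to 0.05775 for Wdr5 in the head, −0.2496 to 0.003888 for Mll1 in the epiblast, −0.06166 to 0.1984 for Ash2l in the interaction, −0.1215 to 0.05894 for Mll1, −0.05545 to 0.04509 for Psip1 and −0.0805 to 0.0208 for Rbbp5 between WT stages, and −0.08568 to 0.03039 for Ncoa6 between DKO stages. Of 908 alternative values for single members, 850 kept their direction and side of the threshold or moved by less than the spread. This count is no measure of robustness, since leaving out a library outside a comparison cannot change its estimate. In the Kmt2b set, differences under 2-fold were judged by the size of the move and not by sign. In the interaction, 17 values lost their call and 3 gained one. The 6 pooled promoter levels stayed within their intervals. Read depth limits the methylation levels of single promoters, and 2 libraries per group limit the head comparison.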
